A study of Mus musculus with 55 samples.

Results

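The circadian clock genes described here are Arntl (Bmal1), Clock, Npas2, Per1, Per2, Per3, Cry1, Cry2, Nr1d1 and Dbp, taken by symbol, with no threshold on any measured value, at a point when earlier results of these data were known. All 10 were found among the 45318 gene identifiers of the count tables, and all 10 passed the low-count filter that left 18283 genes tested. RNA-seq was performed on the ventral dentate gyrus of 54 male C57BL/6J mice, 1 animal per sample and no pooling, for which no transgene or mutant allele was named. Mice were raised from weaning into adulthood in standard housing (SH) or an enriched environment (EE). They were then either left undefeated as controls or exposed to chronic social defeat stress (CSDS) by CD-1 aggressors. Defeated mice were classified as resilient (RES) or susceptible (SUS) by their social interaction ratio, so these groups were sorted by behavior rather than assigned. The 6 groups were SH control (n = 10), SH RES (n = 7), SH SUS (n = 10), EE control (n = 9, of which 1 mouse was sequenced in 2 runs that were summed), EE RES (n = 9) and EE SUS (n = 9).

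The mammalian clock is a transcriptional feedback loop. Arntl pairs with Clock, or in forebrain with its paralog Npas2, and the dimer binds E-box sequences to activate the Per and Cry genes, Nr1d1 and Dbp. Per and Cry proteins then inhibit the dimer, and Nr1d1 represses Arntl through retinoic acid receptor-related orphan receptor elements (RREs), so that in most tissues Arntl RNA peaks at the opposite time of day from Dbp and Nr1d1 RNA. According to the study's methods brains were collected within a window from late morning to early afternoon, in the light phase. The time for each mouse was not in the labels, so its part in any difference between mice was not tested.

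Each mouse had between 16760009 and 45872357 counts assigned to genes, with a median of 21552884. The highest was EE control mouse 9, whose 2 runs were summed, and the next highest was 24426804 in EE RES mouse 2. Each clock gene had at least 121 counts in every mouse. The granule cell markers Prox1, C1ql2, C1ql3, Dsp, Tdo2, Lct and Stxbp6 were all measured and summed to 496 to 1101 CPM, counts scaled to the library size, per mouse. Tissue from neighboring structures was also present in varying amounts, since 8 choroid plexus markers summed to 17.5 to 988 CPM and 7 thalamus markers to 104 to 633 CPM. The low end of the choroid plexus sum was mostly Kl, with at least 15.5 CPM in every mouse, whereas Ttr ran from 0 to 872 CPM. A low sum is thus no sign of choroid plexus tissue. In bulk tissue, fewer cells of a type and less RNA per cell cannot be told apart.

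The loop can act on its own genes through short motifs. The 250 bases before each RefSeq transcription start (GRCm38.p6) were searched on both strands for exact matches to 7 motifs. These were the E-box CACGTG, the related E-prime box CACGTT, the D-box TTATGTAA and its variant TTACGTAA, to which Dbp binds, the RRE cores TAGGTCA and TAGGTTA, and the cyclic AMP response element TGACGTCA. Windows were on hand for 9 of the 10 genes, 13 windows in all because Arntl, Clock and Per1 have several starts. The E-box was found before Per1 and Cry1, in 2 of the 13 windows, against 6.02% of all 32851 promoter windows. The E-prime box was found before Cry1, Cry2 and Nr1d1, in 3 of the 13 windows, against 3.85% of all windows. The D-box was found only before Per3 among these 13 windows, 2 times, against 0.819% of all windows. The other 4 motifs, held by 0.113%, 2.23%, 1.28% and 1.55% of all windows in the order listed, had no match in the 13. None of the matched motifs overlapped another. Windows of 4 of these genes, the pairs Per1 with Nr1d1 and Cry2 with Per3 whose RNA moved together over mice, are given 5′ to 3′ on the strand of the gene, with motifs in capitals. The Per1 window lies at chr11:69098699-69098947 on the plus strand, before a RefSeq start that lies within the gene's annotated span, and is 1 base short because the last base is exonic. The others lie on the minus strand, Nr1d1 at chr11:98775378-98775627, Cry2 at chr2:92434070-92434319 and Per3 at chr4:151044666-151044915.
Per1: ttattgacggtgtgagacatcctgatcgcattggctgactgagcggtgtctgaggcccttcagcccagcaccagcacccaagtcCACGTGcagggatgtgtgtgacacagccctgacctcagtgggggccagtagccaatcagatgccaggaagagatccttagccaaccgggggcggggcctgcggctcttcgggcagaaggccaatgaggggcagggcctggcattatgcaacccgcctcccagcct
Nr1d1: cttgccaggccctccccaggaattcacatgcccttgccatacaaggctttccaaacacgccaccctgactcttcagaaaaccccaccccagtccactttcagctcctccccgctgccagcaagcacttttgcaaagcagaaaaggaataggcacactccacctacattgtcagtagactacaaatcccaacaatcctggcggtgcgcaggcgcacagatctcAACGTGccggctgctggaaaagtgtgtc
Cry2: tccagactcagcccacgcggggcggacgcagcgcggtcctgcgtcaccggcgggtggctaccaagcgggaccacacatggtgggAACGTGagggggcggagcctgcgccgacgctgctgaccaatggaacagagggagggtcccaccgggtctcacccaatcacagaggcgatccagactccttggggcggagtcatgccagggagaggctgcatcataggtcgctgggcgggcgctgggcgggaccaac
Per3: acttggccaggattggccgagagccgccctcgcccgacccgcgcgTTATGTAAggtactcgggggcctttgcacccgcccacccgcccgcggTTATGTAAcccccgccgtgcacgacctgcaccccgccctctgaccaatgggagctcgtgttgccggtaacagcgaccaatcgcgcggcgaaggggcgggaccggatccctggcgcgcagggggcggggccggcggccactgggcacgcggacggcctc
In Per1 the E-box began 166 bases before the start, and in Cry2 the E-prime box, here read as AACGTG on the gene's strand, also began 166 bases before it. In Nr1d1 the E-prime box began 28 bases before the start. In Per3 the D-boxes began 205 and 158 bases before the start. These letters are a description of the windows, and no binding was measured here. Among the windows not printed, that of Cry1 held an E-box and an E-prime box. Those of Arntl, Clock, Npas2 and Dbp and the other window of Per1 held no motif. The relation of motifs to the correlations was not tested.

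Positions are in GRCm38, and counts were taken over the exons of the GENCODE annotation. The activators are Arntl at chr7:113207465-113314126 on the plus strand, Clock at chr5:76209868-76304792 on the minus strand and Npas2 at chr1:39193731-39363236 on the plus strand. The period genes are Per1 at chr11:69095217-69109960 on the plus strand, Per2 at chr1:91415982-91459324 and Per3 at chr4:151003652-151044665, both on the minus strand. The cryptochromes Cry1 at chr10:85131700-85185064 and Cry2 at chr2:92403646-92434043, and Nr1d1 at chr11:98767932-98775333, lie on the minus strand, and Dbp lies at chr7:45705088-45710203 on the plus strand. Exons of Dbp share 539 bases with Sphk2, those of Cry2 295 with D930015M05Rik, those of Nr1d1 263 with Thra and those of Arntl 33 with Gm45355, each on the opposite strand, and the counts used were those of the gene's own strand.

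All 10 clock genes were expressed in every mouse. Per kilobase of exon, Cry2 (16.2 ± 1.52 CPM per kb, SD, n = 54) and the output factor Dbp (12.2 ± 2.21) were the most abundant, followed by Clock (10.5 ± 0.554), Per3 (7.43 ± 0.895), Arntl (5.50 ± 0.661), Nr1d1 (5.33 ± 0.743), Per1 (3.66 ± 0.418), Cry1 (3.61 ± 0.320), Per2 (3.30 ± 0.579) and Npas2 (1.91 ± 0.270). The ranges of all neighbors in this order overlapped. Dbp exceeded Clock in 42 of 54 mice, Nr1d1 exceeded Arntl in 26, Per1 exceeded Cry1 in 30 and Cry1 exceeded Per2 in 35. In contrast, Clock exceeded Per3, Arntl exceeded Per1 and Per2 exceeded Npas2 in all 54.

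The clock genes also differed in how much they varied between mice of the same group. The biological coefficient of variation (BCV), the between-mouse spread estimated by edgeR after counting noise is removed, was 0.168 for Dbp and 0.162 for Per2. Relative to genes of like abundance, these lay at percentiles 96.9 and 96.0 of all genes tested. Nr1d1 had a BCV of 0.131 (percentile 90.0), and Per3, Per1, Arntl, Cry2 and Npas2 lay between percentiles 78.0 and 87.3. Clock (BCV 0.0563, percentile 40.6) and Cry1 (0.0715, percentile 37.2) varied less than most genes. Dbp spanned 22.4 to 48.8 CPM over the 54 mice, whereas Clock spanned 118.5 to 160.5 CPM.

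**Figure D1:**
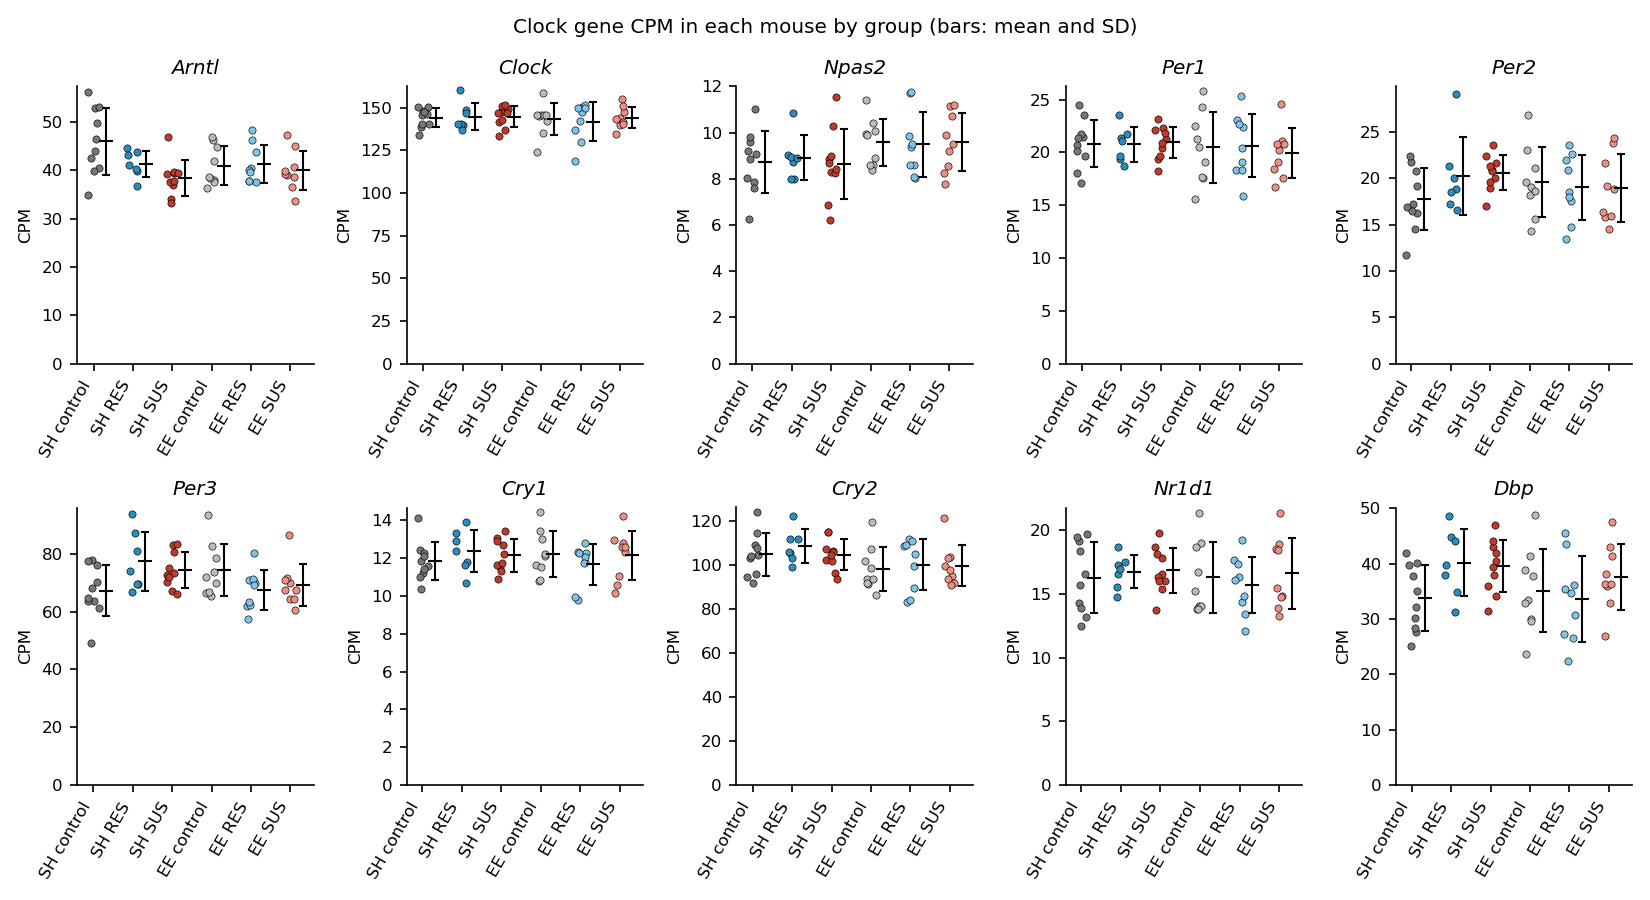
CPM of each clock gene (vertical axis, from 0) in each of the 54 mice by group (horizontal axis), with bars for the mean and SD. The groups overlap for every gene, and Dbp and Per2 are spread more widely within groups than Clock and Cry1.

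It was then examined whether the clock genes differed with defeat, with susceptibility or with housing. No clock gene differed among the 6 groups at an adjusted p of 0.05 (edgeR quasi-likelihood test with Benjamini-Hochberg adjustment over 18283 genes), against 0.312% of all genes, 57 of 18283. At an unadjusted p of 0.05, 2 of the 10 passed in edgeR, limma-voom and DESeq2 alike, against 1996 of all genes in edgeR, and none passed after adjustment by any of these tools. They were Arntl (p = 0.00914, adjusted p = 0.277 in edgeR) and Per3 (p = 0.0387, adjusted p = 0.426 in edgeR). The other 8 had unadjusted p in edgeR of 0.144 for Dbp, 0.183 for Cry2, 0.348 for Npas2, 0.482 for Per2, 0.801 for Cry1, 0.909 for Nr1d1, 0.950 for Per1 and 0.971 for Clock.

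Among the activators, Arntl gave the smallest unadjusted p in the defeated mice raised in SH. Its level in SH control mice was 34.8 at the lowest, 45.2 at the median and 56.3 CPM at the highest. In SH SUS mice it was 33.2, 38.5 and 46.8 CPM, and in SH RES mice 36.7, 41.1 and 44.6 CPM. The upper part of the SH control range lay above both defeated groups, but the groups overlapped. In SH SUS against SH control, the log2 fold change of Arntl was -0.26 ± 0.07 (SE, 95% confidence interval -0.39 to -0.13, n = 10 and 10, p = 0.000251, adjusted p = 0.417 in edgeR). It did not pass adjustment, and 0.0328% of all genes did. The other tools also called no clock gene in this comparison, and 502 genes had an unadjusted p under 0.05 in edgeR. Of the clock genes 2 were at that level in edgeR, Arntl and Per3, and 4 in limma-voom and 4 in DESeq2. The call was closest to the threshold without SH control mouse 3, with an adjusted p of 0.0509. In SH RES against SH control, Arntl had a log2 fold change of -0.15 (95% confidence interval -0.30 to -0.01).

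In EE mice, the levels of Arntl in control and defeated mice lay closer together. Arntl was 36.3, 38.6 and 46.8 CPM at the lowest, median and highest in EE controls, 37.6, 40.1 and 48.3 CPM in EE RES, and 33.7, 39.1 and 47.3 CPM in EE SUS. These 3 groups overlapped almost wholly. In EE SUS against EE control its log2 fold change was -0.03 (95% confidence interval -0.17 to 0.11). The EE controls stood below the SH controls, with a log2 fold change of -0.17 ± 0.07 (SE, p = 0.0156, adjusted p = 0.874 in edgeR) where 0.00547% of all genes passed. The effect of defeat on Arntl differed between housings by 0.20 on the log2 scale (95% confidence interval 0.03 to 0.37, p = 0.0233, adjusted p = 0.772 in edgeR), which did not pass adjustment. Over both housings, Arntl in defeated against control mice had a log2 fold change of -0.11 ± 0.04 (SE, p = 0.0138, adjusted p = 0.955 in edgeR), against 0.0438% of all genes called.

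Values of other cell types moved with Arntl. The 5 red cell markers, which are Alas2 and 4 hemoglobin genes, all passed in SH SUS against SH control, with log2 fold changes from 1.33 to 1.71 in edgeR. Their sum was 52.2 to 107 CPM in SH controls, 97.9 to 253 CPM in SH RES and 68.5 to 419 CPM in SH SUS, and 60.1 to 107 CPM in EE controls, 82.5 to 242 CPM in EE RES and 52.4 to 441 CPM in EE SUS. After group means were removed, Arntl had a correlation over mice of -0.34 with the red cell score, -0.48 with the choroid plexus score and 0.47 with the granule cell score. With the choroid plexus and thalamus scores as covariates, the log2 fold change of Arntl in SH SUS against SH control was -0.25 (adjusted p = 0.143 in edgeR). The part of red cells in the result was not tested.

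The partners of Arntl had smaller fold changes in defeated mice. Clock, the DNA-binding partner, had group means from 141.7 CPM in EE RES to 144.7 CPM in SH RES. It had log2 fold changes between -0.02 and 0.02 in all 12 contrasts, and its 95% confidence interval in SH SUS against SH control was -0.07 to 0.08. Npas2, the forebrain partner, averaged 8.73 ± 1.35, 8.92 ± 0.959 and 8.64 ± 1.51 CPM (SD) in SH control, RES and SUS, and 9.58 ± 1.02, 9.50 ± 1.41 and 9.58 ± 1.26 CPM in the same groups of EE. Over all 3 phenotypes, Npas2 in EE against SH had a log2 fold change of 0.12 (95% confidence interval 0.01 to 0.23, p = 0.0267, adjusted p = 0.210 in edgeR). That is the contrast with the highest background, where 2.27% of all genes (415) passed.

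Among the period genes, whose proteins repress the dimer, Per3 had the smallest p in SH RES mice. In SH control mice it was 49.2, 66.4 and 78.0 CPM at the lowest, median and highest. In SH RES it was 66.8, 74.2 and 93.8 CPM, and in SH SUS 66.1, 72.9 and 83.5 CPM. The lowest values of both defeated groups lay near the SH control median. In SH RES against SH control, Per3 had a log2 fold change of 0.20 ± 0.08 (SE, p = 0.0108, adjusted p = 0.9999 in edgeR). This was the smallest p of the clock genes in that comparison, where 0% of all genes passed, and where 623 genes, 2 of them clock genes, had an unadjusted p under 0.05 in edgeR. In SH SUS against SH control its log2 fold change was 0.14 (95% confidence interval 0.00 to 0.29).

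In EE the medians ran the other way. Per3 was 65.5, 72.1 and 93.3 CPM in EE controls, 57.4, 69.3 and 80.4 CPM in EE RES, and 60.6, 67.5 and 86.4 CPM in EE SUS. Its log2 fold change was -0.14 in EE RES and -0.10 in EE SUS against EE control, with 95% confidence intervals of -0.29 to 0.01 and -0.25 to 0.05. It had the smallest p of the clock genes in both comparisons (adjusted p = 0.649 and 0.766 in edgeR). There 0% of all genes passed, and 1413 had an unadjusted p under 0.05 in each, none of them a clock gene. The defeat effect on Per3 differed between housings by -0.29 ± 0.09 on the log2 scale (SE, 95% confidence interval -0.47 to -0.11, p = 0.00181, adjusted p = 0.772 in edgeR). The controls also differed, with Per3 higher in EE than in SH controls by 0.14 (95% confidence interval -0.001 to 0.288, p = 0.0510, adjusted p = 0.988 in edgeR). The part of this control difference in the interaction was not tested. No interaction passed adjustment in any of the 3 tools (0% of all genes), and 1153 genes, Per3 and Arntl among them, had an unadjusted p under 0.05 in edgeR.

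Per2 was 11.75, 17.1 and 22.4 CPM at the lowest, median and highest in SH control, 16.6, 18.8 and 29.1 CPM in SH RES and 17.1, 20.9 and 23.6 CPM in SH SUS. In EE it was 14.4, 19.1 and 26.8 CPM in controls, 13.4, 18.55 and 23.6 CPM in RES and 14.5, 18.9 and 24.4 CPM in SUS. All 6 groups overlapped. Per2 in SH SUS against SH control had a log2 fold change of 0.22 (95% confidence interval -0.01 to 0.44), and Per1, which also responds to glucocorticoids and to neuronal activity, had one of 0.01 (95% confidence interval -0.14 to 0.16). Per1 was the most even of the period genes over groups, with means from 19.9 CPM in EE SUS to 21.0 CPM in SH SUS.

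The cryptochromes are the other repressors of the dimer. Cry1 had group means from 11.7 CPM in EE RES to 12.4 CPM in SH RES and log2 fold changes between -0.08 and 0.09 in the 12 contrasts. Cry2 averaged 105.0 ± 9.75, 108.5 ± 7.68 and 104.8 ± 6.97 CPM (SD) in SH control, RES and SUS, and 98.2 ± 10.2, 100.2 ± 11.6 and 99.6 ± 9.32 CPM in the same groups of EE. Each EE mean lay below each SH mean, with a log2 fold change of -0.09 ± 0.03 (SE, p = 0.00924, adjusted p = 0.133 in edgeR), the smallest p of the clock genes for housing. Cell type markers moved in the same contrast. The granule cell markers Tdo2 and Dsp fell by 0.28 and 0.30 on the log2 scale in EE (adjusted p = 0.0301 and 0.0411 in edgeR), and 2 of 7 passed. Of the 7, 5 had an unadjusted p under 0.05. Of 4 endothelial markers 1 passed, Flt1 (log2 fold change 0.23, adjusted p = 0.0229 in edgeR), and all 4 had an unadjusted p under 0.05. Of 5 oligodendrocyte markers 0 passed in edgeR, with all 5 at an unadjusted p under 0.05 and a median log2 fold change of 0.27. Of 5 CA3 and 5 microglia markers 0 passed, and 3 of each had an unadjusted p under 0.05, beside 17.5% of all genes. Their median log2 fold changes were 0.10 and 0.05 (smallest adjusted p = 0.117 and 0.236 in edgeR). Cry2 had a correlation over mice of -0.55 with the CA3 score, -0.40 with the oligodendrocyte score and -0.35 with the microglia score. It had 0.36 with the granule cell score and -0.12 with the endothelial score. The part of these cell types in the housing difference was not tested.

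Nr1d1 (REV-ERBα), the nuclear receptor that represses Arntl, had group means from 15.7 CPM in EE RES to 16.8 CPM in SH SUS and log2 fold changes between -0.06 and 0.08 in the 12 contrasts. Its lowest, median and highest levels were 12.1, 16.3 and 21.3 CPM over the 54 mice. Dbp, a D-box activator that reads out the loop, was 25.05, 33.7 and 42.0 CPM at the lowest, median and highest in SH control, 31.2, 39.7 and 48.6 CPM in SH RES, and 31.4, 39.9 and 46.9 CPM in SH SUS. It was 23.7, 33.35 and 48.8 CPM in EE control, 22.35, 34.8 and 45.6 CPM in EE RES, and 26.9, 36.35 and 47.5 CPM in EE SUS. Both defeated SH groups had medians above that of SH controls but overlapped them. The log2 fold change of Dbp was 0.22 (95% confidence interval 0.00 to 0.45) in SH SUS and 0.25 (0.00 to 0.50) in SH RES against SH control, both intervals reaching just below 0.

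**Figure D2:**
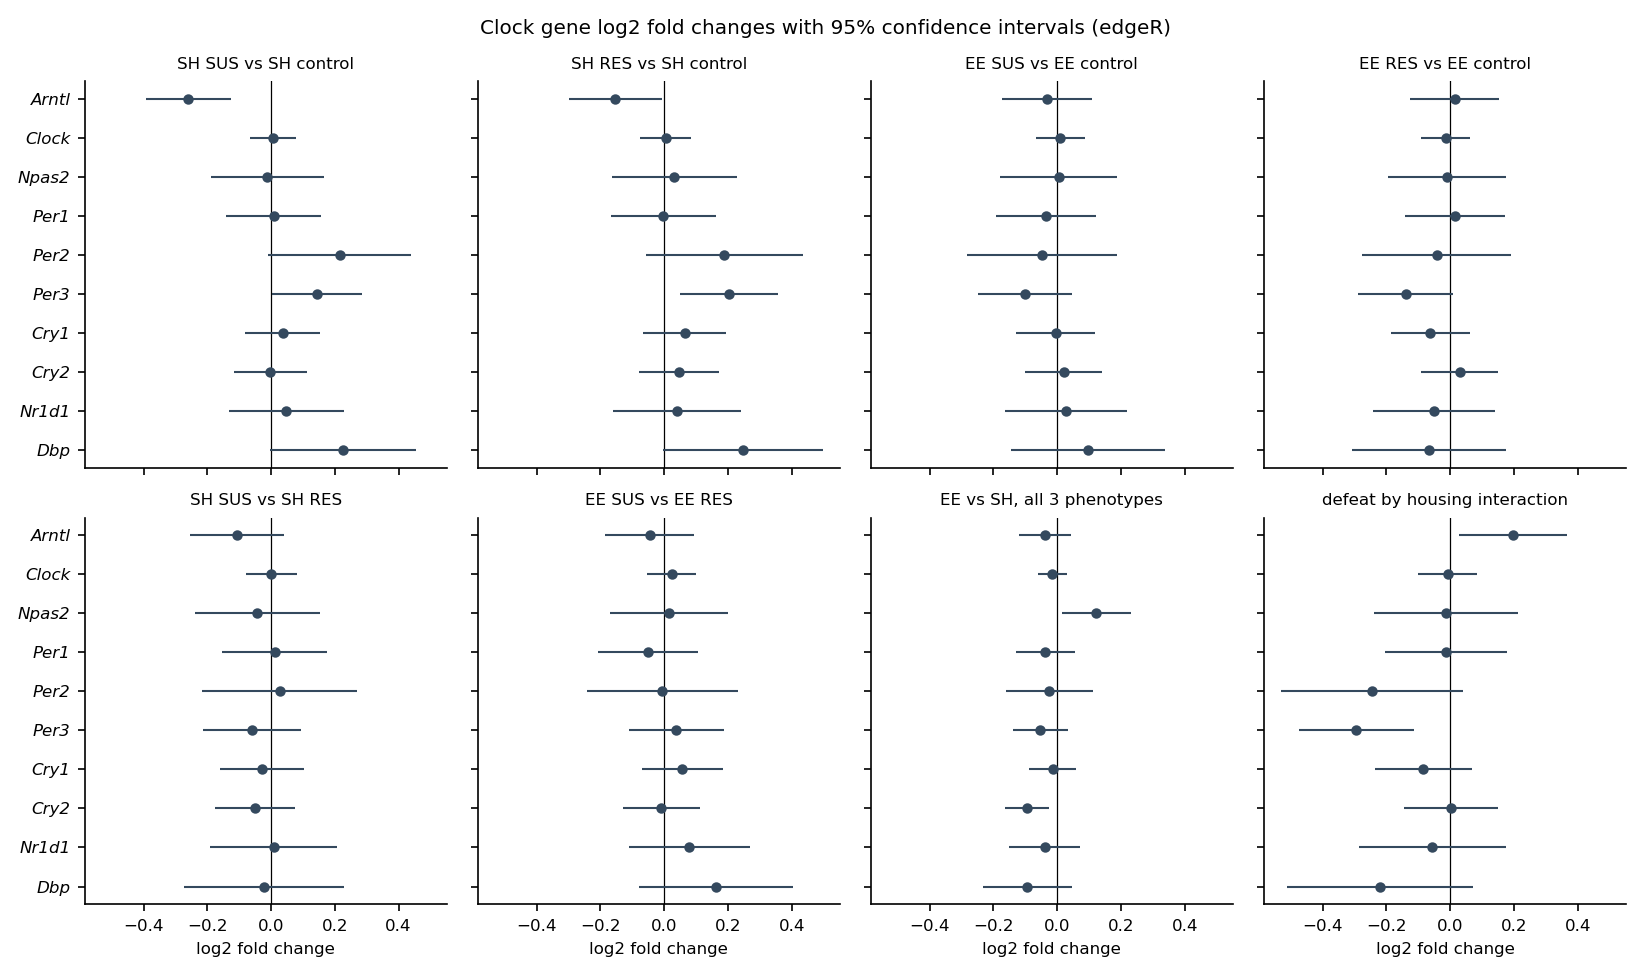
Log2 fold changes of the 10 clock genes (horizontal axis) in 8 contrasts, with points for the edgeR estimate and bars for the 95% confidence interval. Arntl lies below 0 in both SH panels against control, Per3 above 0, and no gene passes adjustment over all genes.

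No clock gene passed the test between SUS and RES mice within either housing. In SH the log2 fold changes of SUS against RES ran from -0.11 for Arntl (95% confidence interval -0.25 to 0.04) to 0.03 for Per2. In EE they ran from -0.05 for Per1 to 0.16 for Dbp (95% confidence interval -0.08 to 0.40). The smallest adjusted p in edgeR was 0.938 in SH, for Arntl, and 0.9997 in EE. In both comparisons 0% of all genes passed in edgeR, limma-voom and DESeq2, although 871 genes in SH and 629 in EE had an unadjusted p under 0.05 in edgeR. None of those was a clock gene in any of the 3 tools. By the criterion for differentially expressed genes (DEGs) in the study's methods, limma-voom with an unadjusted p under 0.05 and a fold change above 1.3, 0 of the 10 clock genes were DEGs in SH and 0 in EE, against 1.14% and 1.1% of all genes. The methods describe fewer libraries for most defeat groups than the labels list, and all labelled mice were used here. Over both housings together, and for the difference between housings in the SUS to RES contrast, 0% of all genes passed, with 659 and 869 genes at an unadjusted p under 0.05 in edgeR and no clock gene among them. The smallest p of the clock genes there was that of Arntl over both housings (log2 fold change -0.08 ± 0.05, SE, 95% confidence interval -0.18 to 0.03, adjusted p = 0.9993 in edgeR) and of Dbp for the difference between housings (0.18 ± 0.17, SE, 95% confidence interval -0.16 to 0.53, adjusted p = 0.981 in edgeR). The median log2 fold change of the 10 genes was -0.03 in SH and 0.02 in EE, beside 0.00 over all genes in each.

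The wider clock pathway was then counted. Of 11 further loop and output factors and 19 kinases, ligases and partners of the clock proteins, all 30 were measured, and 0 passed in any of the 12 contrasts in edgeR or among the 6 groups in edgeR, limma-voom and DESeq2. At an unadjusted p under 0.05 in edgeR, 3 of the 11 and 3 of the 19 were found among the 6 groups, where 10.9% of all genes were. In EE against SH these were 2 of the 11 and 4 of the 19, beside 17.5% of all genes, and in EE SUS against EE control 2 of the 11 and 2 of the 19, beside 7.73%. In SH SUS and in SH RES against SH control they were 3 of the 11 and 0 of the 19, beside 2.75% and 3.41% of all genes. In each of the other 8 contrasts at most 2 of the 11 and 2 of the 19 were found. There 3.44% to 7.73% of all genes were at that level. The 2 of 11 came in defeated against control mice over both housings, beside 4.66% of all genes. The 2 of 19 came in SH SUS against SH RES, beside 4.76%. The smallest omnibus p values of the 30 were those of Rora and Ciart, with adjusted p = 0.391 and 0.422 in edgeR. Rora, which activates Arntl through the RRE, averaged 87.4 ± 22.6 CPM in EE controls and 157.5 ± 69.5 CPM in EE SUS (SD). Rora is also one of the 7 thalamus markers, whose sum ranged from 118 to 253 CPM in EE controls and 156 to 574 CPM in EE SUS. Ciart, a repressor of the Arntl and Clock dimer, averaged 7.87 ± 1.56 CPM in SH control, 9.63 ± 2.05 CPM in SH RES and 9.75 ± 0.967 CPM in SH SUS (SD).

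Although the group means were close, the clock genes varied together from mouse to mouse. Log2 CPM values were taken after subtracting each group's mean, and Pearson and Spearman correlations were computed for all 45 pairs over the 54 mice, with permutation tests of 100000 resamples and Benjamini-Hochberg adjustment over the 45. Of the 45 pairs, 27 passed an adjusted p of 0.05 by Pearson, 22 of them positive and 5 negative, and all 27 also passed by Spearman, where 28 passed. All 27 had the same sign in SH and in EE mice, each pooled over phenotypes, though not in every single group. The genes of a mouse share its library depth and the tissue makeup of its punch. How many pairs of other genes would pass was not computed. Among all 18282 other genes, Nr1d1 ranked 27 and Cry2 103 from the highest r with Dbp. Npas2 (r = 0.40) ranked 656 and Per3 (r = 0.32) 1500, so many other genes were closer to Dbp than either, although both pairs passed. From the lowest r with Dbp, Arntl ranked 53 and Clock 352.

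The period genes, Cry2, Nr1d1 and Dbp varied together over the 54 mice, and every pair among them passed. Per1 and Nr1d1 had the highest correlation (r = 0.73, rho = 0.70, permutation p = 1e-05, the smallest these resamples can give, adjusted p = 0.000225). It was 0.66 in SH and 0.77 in EE, and 0.72 without the 2 mice farthest from the Per1 median. Per2 and Per3 followed (r = 0.72, rho = 0.64, permutation p = 1e-05, adjusted p = 0.000225), with 0.77 in SH, 0.68 in EE and 0.65 without the 2 farthest mice. Per1 and Cry2 had r = 0.65 and rho = 0.66 (permutation adjusted p = 0.000225), and Nr1d1 and Dbp r = 0.61 and rho = 0.65 (permutation adjusted p = 0.000225). Cry2 and Per3 had r = 0.57 and rho = 0.63 (permutation adjusted p = 0.000225). Cry1 was the loosest of the repressors, with r = 0.45 with Per3 and 0.06 with Dbp. Within single groups, some pairs of the period genes, Cry2, Nr1d1 and Dbp changed sign. In SH SUS mice (n = 10), r with Dbp was -0.55 for Cry2, -0.48 for Per3, -0.26 for Per2 and -0.01 for Per1. With Nr1d1 it was -0.24 for Per3, -0.24 for Cry2 and -0.20 for Per2 there. The other pairs of these genes were positive in SH SUS. Per3 with Dbp was also negative in EE control mice (-0.16).

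Arntl ran opposite to Dbp and Per2. Arntl and Dbp had r = -0.62 and rho = -0.62 (permutation p = 3e-05, adjusted p = 0.000225), with -0.67 in SH, -0.61 in EE and -0.63 without the 2 farthest mice. Arntl and Per2 had r = -0.46 and rho = -0.49 (permutation adjusted p = 0.00265). The pairs of Arntl with Nr1d1 and the other repressors did not pass, with r = -0.27 for Per3, -0.25 for Nr1d1, -0.14 for Per1, -0.09 for Cry2 and 0.12 for Cry1 (permutation adjusted p from 0.110 for Per3 to 0.582 for Cry2). Clock was lower in mice with high Cry2 (r = -0.56, rho = -0.52, permutation adjusted p = 0.00035), Dbp (r = -0.51, rho = -0.42, permutation adjusted p = 0.00191) and Per2 (r = -0.41, rho = -0.37, permutation adjusted p = 0.00986). Its correlation with Arntl was 0.14 (rho = 0.10, permutation adjusted p = 0.371). For Clock and Dbp, r was -0.22 in SH and -0.65 in EE, and -0.37 without the 2 mice farthest from the Clock median. Without the 2 farthest mice Clock and Per2 had r = -0.28.

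Npas2 varied with some of the repressors and output genes. It was correlated with Nr1d1 (r = 0.53, rho = 0.52, permutation adjusted p = 0.000281), Cry2 (r = 0.50, rho = 0.50), Per1 (r = 0.50, rho = 0.46) and Dbp (r = 0.40, rho = 0.43), and not detectably with Arntl (r = -0.06, permutation adjusted p = 0.713) or Clock (r = -0.22, permutation adjusted p = 0.153). Its correlations with Per2 (r = 0.20, permutation adjusted p = 0.209), Per3 (r = 0.12, permutation adjusted p = 0.461) and Cry1 (r = 0.04, permutation adjusted p = 0.785) did not pass.

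**Figure D3:**
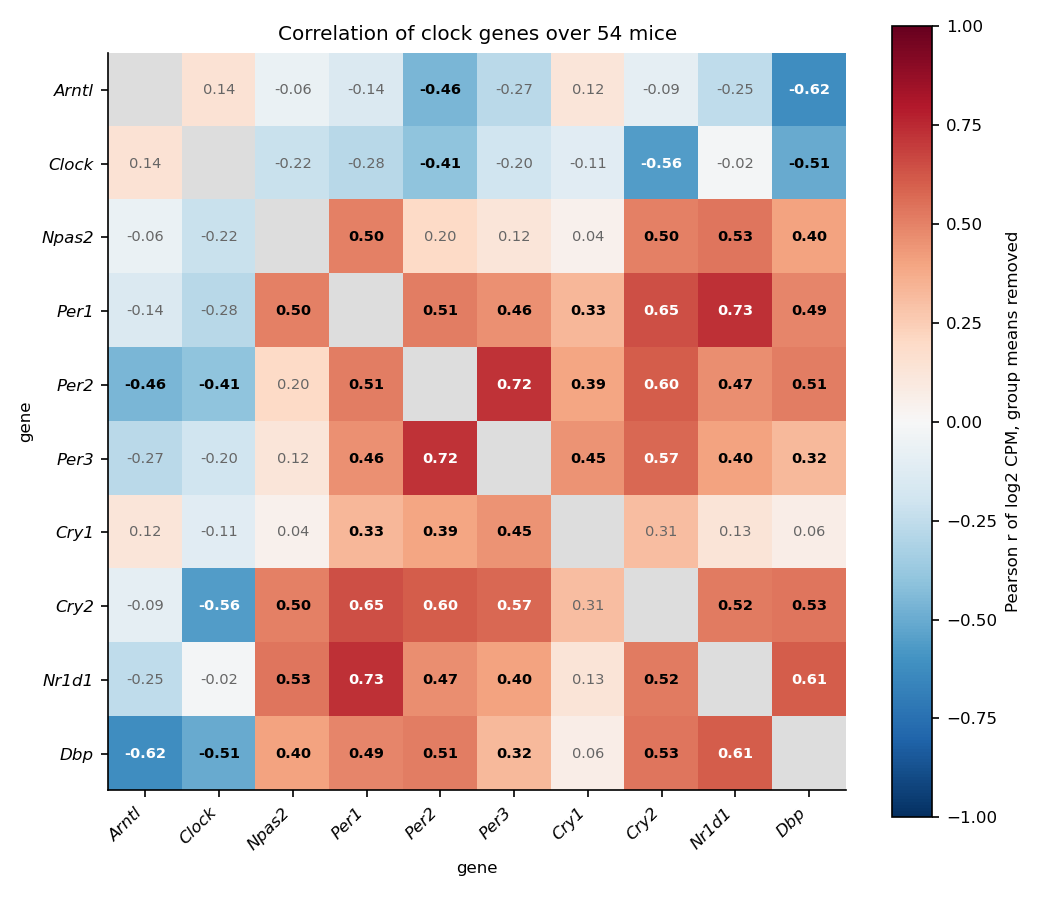
Pearson r of log2 CPM with group means removed for the 45 pairs of clock genes over 54 mice, colored from -1 to 1, with bold numbers where the permutation p adjusted over 45 pairs is under 0.05. Per, Cry2, Nr1d1 and Dbp form a positive block, and Arntl and Clock are negative with Per2 and Dbp.

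**Figure D4:**
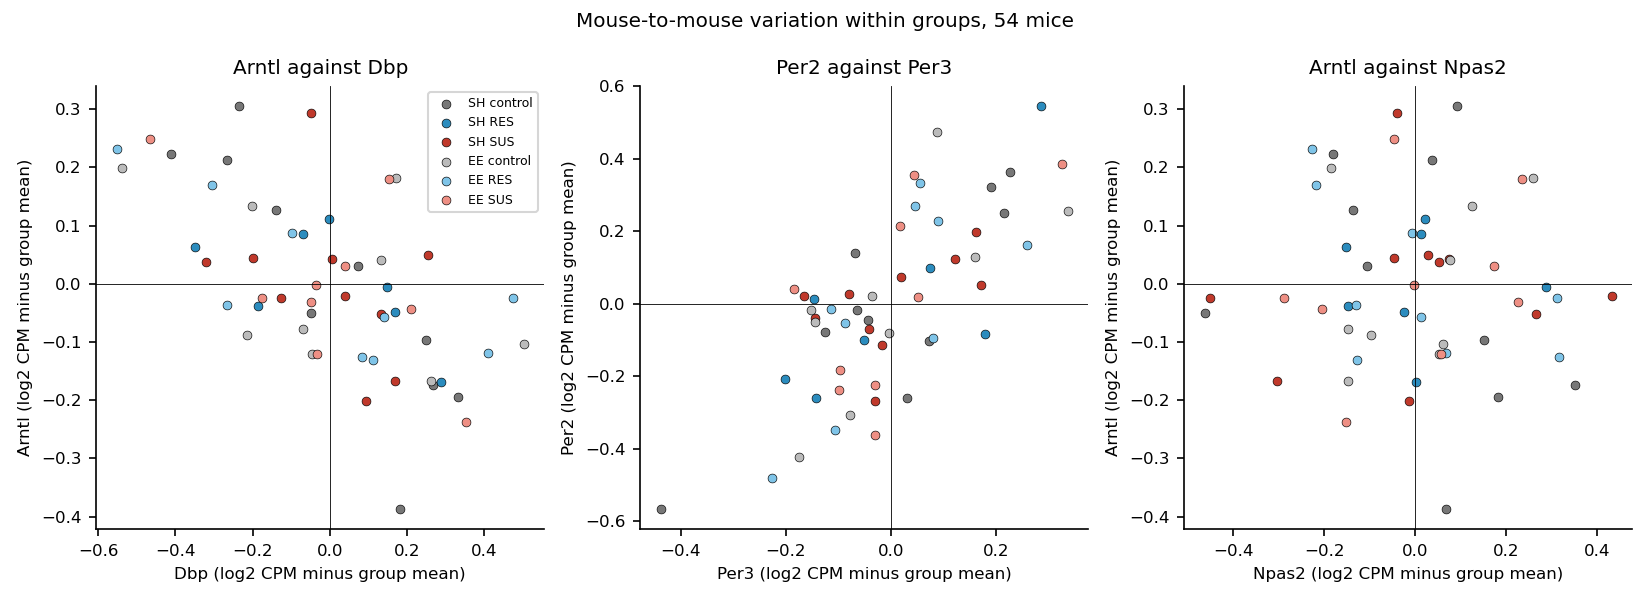
Log2 CPM minus the group mean in each mouse, colored by group, for Arntl against Dbp (r = -0.62), Per2 against Per3 (r = 0.72) and Arntl against Npas2 (r = -0.06). Group means were subtracted, so the mixing of the 6 groups along each cloud says nothing of differences between groups.

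Several of these pairs moved with the tissue makeup of the sample. Nr1d1 and Per1 had correlations of 0.55 and 0.45 with the thalamus score, and Clock had -0.52 with the CA1 score. When the scores of all 10 cell type marker lists were regressed out, a choice made after seeing the data, 24 pairs passed in place of 27. Some of these 24 were pairs that had not passed before. Arntl with Dbp (r = -0.67), Per2 with Per3 (r = 0.78), Nr1d1 with Dbp (r = 0.56), Npas2 with Nr1d1 (r = 0.42) and Per1 with Nr1d1 (r = 0.45) still passed. Clock with Dbp (r = -0.29), Clock with Per2 (r = -0.21), Per1 with Cry2 (r = 0.31), and Npas2 with Per1 (r = 0.18), Cry2 (r = 0.13) and Dbp (r = 0.09) no longer passed.

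The first principal component of the 10 genes held 44.9% of their standardized variance within groups. Cry2, Per2, Per1, Dbp and Nr1d1 loaded on it between 0.35 and 0.39, and Arntl and Clock loaded with the opposite sign, at -0.20 and -0.24. Per3 (0.33), Npas2 (0.26) and Cry1 (0.18) also loaded on the positive side. The activator Npas2 thus lay with the repressors and Dbp rather than with Arntl and Clock. Cry1 had the largest loading on the second component, which held 14.3%, and Dbp (-0.40) and Arntl (0.49) lay on opposite sides of it.

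The genes most like Dbp and Arntl over the 54 mice were then listed from all 18282 other genes by the same group-centered correlation, as a description. Among protein-coding genes outside the 10, Dbp was most like Ciart (r = 0.76), followed by 2310022B05Rik (0.73), Ttyh1 (0.71), Tril (0.70), Fat1 (0.68), Rbm3 (0.68), Kif21b (0.66) and Plcxd1 (0.66). It was least like Caprin1 (-0.77), Nfil3 (-0.75), Hnrnpc (-0.71) and Serpina3n (-0.71). Ciart ranked 1 of 18282 from the top. Nfil3, a repressor that competes with Dbp for D-boxes, ranked 2 from the bottom. Rbm3 encodes an RNA-binding protein induced by cold.

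Arntl was most like Tcf20 (0.70), Dusp4 (0.68), Rbm28 (0.68), Emg1 (0.64), Chst9 (0.63), Kntc1 (0.63), Ccdc171 (0.63) and Rbbp5 (0.62), and least like Dchs2 (-0.71), Cpne2 (-0.69), Neto1 (-0.66) and Necab2 (-0.66). For Arntl, Ciart (-0.65) ranked 6 and Dbp ranked 7 from the bottom of 18282, and Nfil3 (0.58) ranked 34 from the top. Nr1d2, the paralog of Nr1d1, had -0.45 with Arntl and 0.53 with Dbp. Not every output factor followed Dbp, since its paralogs Tef and Hlf had correlations with it of -0.20 and 0.29.

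To place each mouse on 1 scale, a clock score was taken as the mean z-score of Dbp, Nr1d1, Per1, Per2 and Per3 minus that of Arntl, Npas2 and Clock. It is described without a test, since it is built from the 10 genes. The score was -0.48 ± 1.11 (SD) in SH control, 0.35 ± 0.94 in SH RES, 0.64 ± 0.62 in SH SUS, -0.06 ± 1.26 in EE control, -0.27 ± 1.14 in EE RES and -0.12 ± 1.03 in EE SUS. Without SH RES mouse 7, whose score of 2.23 stood apart, the other 6 SH RES mice had 0.04 ± 0.49. With Npas2 left out of the score, since it was positively correlated with Nr1d1, Per1 and Dbp, the means of EE control and EE SUS turned positive, at 0.08 and 0.03, and those of the other 4 groups kept their sign. When 1 of a group's own mice was left out, the EE control mean ran from -0.31 to 0.09 and the EE SUS mean from -0.27 to 0.09. The groups overlapped, and single mice of 1 group lay as far apart as -2.51 and 0.85 in SH control and -1.55 and 2.17 in EE control. SH SUS mice spanned -0.22 to 1.56, and SH RES mice other than mouse 7 spanned -0.59 to 0.59.

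**Figure D5:**
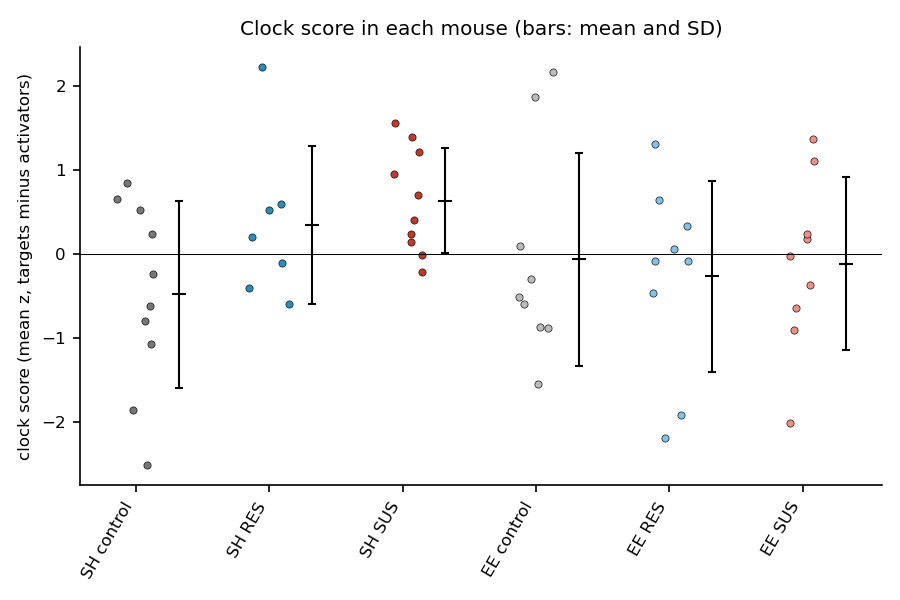
Clock score (vertical axis, difference of mean z-scores) in each mouse by group, with bars for the mean and SD. The SH SUS mean of 0.64 is the highest and the SH control mean of -0.48 the lowest, and all groups overlap.

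Because Per1 is a target of the glucocorticoid receptor and an immediate early gene, the clock genes were set against scores of 10 glucocorticoid targets such as Fkbp5, Sgk1 and Tsc22d3, and of 11 immediate early genes such as Fos, Arc and Npas4. None of the 20 relations passed an adjusted p of 0.05 over the 20. Per1 had r = -0.10 and rho = -0.13 with the glucocorticoid targets (permutation p = 0.443, adjusted p = 0.738), with -0.10 in SH, -0.12 in EE and -0.16 without the 2 farthest mice. It had r = 0.21 and rho = 0.15 with the immediate early genes (permutation p = 0.158, adjusted p = 0.400), with 0.14 in SH, 0.27 in EE and 0.19 without the 2 farthest mice. The smallest p of the 20 was that of Dbp with the glucocorticoid targets (r = -0.40, rho = -0.36, permutation p = 0.00351, adjusted p = 0.0702), with -0.39 in SH and -0.44 in EE, and -0.35 without the 2 farthest mice. Of the 10 glucocorticoid targets themselves, 0 passed among the 6 groups in edgeR, with 2 at an unadjusted p under 0.05 (Zbtb16 and Sgk1), where 0.312% and 10.9% of all genes were.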

How the data were processed

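The authors deposited raw gene counts of 55 libraries from 54 mice, made with STAR and mm10 according to the submitters' processing notes. The study's methods name featureCounts, whereas the columns are those STAR writes for unstranded, forward and reverse reads. The reverse-strand column was used, since Cry2, Nr1d1 and Dbp overlap genes on the opposite strand. Rows of unmapped (13.9% to 19.85%), multimapping, unassigned and ambiguous reads were left out. Both runs of EE control mouse 9 were summed, as their log2 values had r = 0.998 against at most 0.994 with other EE controls. Symbols and coordinates came from GENCODE M21 (GRCm38), which matched 44671 of 45318 identifiers, and promoters and motif windows from RefSeq.

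Genes were filtered with filterByExpr and scaled by TMM in edgeR 4.0.16 (R 4.3.3), and the quasi-likelihood test was fitted to all 54 mice and 18283 genes, with 12 contrasts and an omnibus test. CPM values were computed from these deposited counts, and log2 CPM used a prior count of 2. Limma-voom (limma 3.58.1), DESeq2 1.42.0, another scaling, no filter, unstranded counts, a replicate block, tissue covariates and leaving out each mouse were the alternatives. Correlations used SciPy 1.17.1. Counts of SH SUS against SH control were simulated for 18186 genes, with 100 genes changed 1.5-fold and 100 changed 2-fold. The test recovered 81% of the former and 93% of the latter, and called 9 others. In the measured counts of that comparison 6 of 18283 genes passed, and with fewer changed genes the adjustment is stricter. The rates may thus be too high for the measured counts, also at 1.5-fold and 2-fold. Smaller changes were not simulated. The largest clock gene change in that comparison was a log2 fold change of -0.26 (Arntl, fold 0.835), which these rates do not cover.

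The 10 genes, the lists and the tests were chosen with earlier results of these data known. All 10 genes were tested in every comparison and are named in the test among the 6 groups, and fold changes are given in full for the gene with the smallest p of a contrast. Other fold changes, Zbtb16 and Sgk1 were chosen after their values were seen. The other genes named are the 2 pathway genes with the smallest omnibus p, the 8 highest and 4 lowest correlations with Dbp and Arntl, and markers. Each mouse is 1 sample, so p-values measure the spread between mice. According to the study's supplementary methods, mice shared cages, with more mice per cage in EE than in SH. The cage of each mouse was not in the labels, so mice were treated as independent. The part of cage in the housing comparisons was not tested. The labels do not say what the replicate number stands for. Over all genes, mice of different groups that share it had a median correlation of 0.03 (-0.26 to 0.44) over 126 pairs. Mice with different numbers had -0.004 (-0.355 to 0.492) over 1086 pairs.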

Additional observations from a re-analysis of the deposited data

Results flagged for a closer look

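In 66 sets of values, 10 genes and the clock score in each of 6 groups, 6 held a mouse that stood apart from the rest of its group by Dixon's ratio of the gap to the range. Chance gives about 3.3 such sets of 66. Arntl was 46.8 CPM in SH SUS mouse 5, where the next highest SH SUS mouse had 39.5 CPM. Npas2 was 10.9 CPM in SH RES mouse 6, with 9.02 CPM next. SH RES mouse 7 had 29.1 CPM of Per2, with 21.3 CPM next, and a clock score of 2.23, with 0.59 next. EE SUS mouse 8 had 86.4 CPM of Per3, with 71.4 CPM next, and 121.2 CPM of Cry2, with 103.6 CPM next.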

How the results depend on the processing

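No clock gene passed an adjusted p of 0.05 in any of 13 tests under 7 alternative fits or 54 fits that each left out 1 mouse, and no other pathway gene passed among the 6 groups. The smallest adjusted p of these was 0.0509, for Arntl in SH SUS against SH control without SH control mouse 3. At the study's criterion the count stayed at 0 of 10 in both housings under every alternative. The log2 fold changes of the gene with the smallest p in each contrast kept their sign under all of these fits. For Arntl in SH SUS against SH control they ran from -0.30 to -0.22 when 1 mouse was left out. The replicate block pairs mice by a number whose meaning the labels do not give. With it, 0 clock genes passed and 24 of 45 pairs were correlated in place of 27, not all of them among those 27. Other settings gave 24 (unstranded counts) to 31 pairs (choroid plexus and thalamus scores regressed out). Npas2 with Dbp (r = 0.27), Per1 with Per3 (0.31), Per3 with Nr1d1 (0.27) and Per3 with Dbp (0.26) were lost with the block. The mean clock score of SH RES, recomputed over the remaining mice, ran from 0.08 to 0.49 when 1 SH RES mouse was left out. Depth limits Npas2 most, with 121 to 389 counts per mouse.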
